A study of Nicotiana tabacum with 12 samples.

Results

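The genes described here are 3 of the 61526 in the count table: NtABS (LOC107816701), a labdane diterpene synthase of glandular trichomes; LOC107788173, whose only symbol in the reference gene table is cyclase; and DXS (LOC107773391), which encodes 1-deoxy-D-xylulose phosphate synthase. They were chosen by their fitted difference between the mean of the 3 transgenic lines and untransformed plants, where each ranked near the top by p among genes that carry a symbol. That contrast is therefore given as a description with no test. Tests are kept for differences among the lines and shared variation inside groups, by which the genes were not ranked. A choice by p also favours genes with a small fitted spread inside groups, on which the tests among the lines rest too. The product of the cyclase gene is not given in the reference table, so its reading as a terpene cyclase could not be checked.

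All plants were burley tobacco (Nicotiana tabacum) of cultivar TN90, grown in a field, and RNA came from upper leaves frozen before maturity. The CK group was untransformed wild type, and 3 transgenic lines, P9.10a, P3.9a and P2.4a, carried NtYb1 (also called EGY2, a chloroplast protease gene) behind the 35S promoter, which is active in most plant tissues and not in trichomes alone. Each group has 3 libraries, and the lines are green-stem segregants of primary transformants, so the progeny of separate transformation events stand for the transgene. The treatment text names a P3 plant by another number than the titles do and ends with wording on inoculated roots, and the groups here follow the titles. The study asked which carbon and nitrogen pathways differ when tobacco expresses a functional copy of this gene, which was not analysed here because no symbol matched it, so the labels were not checked against it.

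Tobacco leaves bear glandular trichomes, hairs whose head cells make and secrete a sticky exudate rich in diterpenes, mainly labdanes and cembranoids, which are known for their part in defence against insects and in leaf aroma. Their carbon skeletons start in the plastid. DXS joins pyruvate and a triose phosphate as the first step of the plastid isoprenoid route, prenyl transferases such as geranylgeranyl diphosphate synthase (GGPPS) extend the chain, and diterpene synthases fold it: NtABS turns a hydroxylated copalyl diphosphate into cis-abienol. The same plastid pool also feeds chlorophyll side chains, carotenoids and gibberellins. Whole leaves were sequenced, so fewer or more trichome cells and less or more RNA in each cannot be told apart.

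Library totals ran from 13536964 to 18444571 counts. Levels are given in CPM, counts scaled by the size of the library. Sums over marker lists were scaled by the library total, and levels of single genes by the effective size, the TMM-scaled total. The 15 leaf mesophyll genes matched by symbol included CAB21 of the light-harvesting antenna and the pair of Rca copies. They summed to between 21460 and 24253 CPM in CK and between 19761 and 26750 in the lines. Genes of the labelled tissue were thus read at high levels. PMT of the root and GLO of the flower had 0 counts in every library, but other genes of these lists were read. In the root list qpt2 had 628 to 1215 counts per library, and in the flower list FUL1 had 399 to 1114. TobRB7 of the root and FUL2 and SOC1 of the flower had at most 50 counts in any library. Of the trichome marker symbols looked for, NtABS and cyclase alone were found, so no trichome marker other than the genes described here was at hand. P3.9a replicate 1 stood apart on the first principal component, at -77.4 with the other libraries between -26.5 and 40.3, and CK replicate 3 on the second, at -62.8 with the others between -22.2 and 32.3. Without CK replicate 3 the log2 change of the mean of the lines was 0.60 for NtABS, 0.74 for cyclase and 0.70 for DXS; without P3.9a replicate 1 it was 0.62, 0.68 and 0.68. Between the lines and CK, markers of other cells gave these values. Of 7 genes of dividing cells, 5 were above 0 (the cyclin pair, the PCNA pair and CycB1), with a median log2 change of 0.43. Of the 7, 3 had an unadjusted edgeR p under 0.05, as did 4452 of all 39207 tested genes. The 3 were the cyclin genes LOC107793085 (0.59, SE 0.11, edgeR adjusted p = 0.0652) and LOC107792202 (0.43, SE 0.12), and the PCNA copy LOC107779602 (0.79, SE 0.31). The summed level of the 7 was 431 to 502 CPM in CK and 359 to 666 in the lines. NtH1 and H3, both below 0, were the most heavily read of them, with means of 301 and 113 CPM in CK. Of the 15 mesophyll genes 13 were below 0, with a median of -0.09, and psbS (-0.32) had an unadjusted p under 0.05. The 4 vascular genes summed to 312 to 353 CPM in CK and 293 to 357 in the lines, the 3 of the root to 62.6 to 72.3 and 44.7 to 66.2, and the 4 of the flower to 47.8 to 51.0 and 30.6 to 70.5. In the vascular list SUT1, a sucrose transporter, had -0.59 (SE 0.11, edgeR adjusted p = 0.0570), while SEO1, SEO2 and COV1 were above 0. The root gene qpt2 had -0.28, also with an unadjusted p under 0.05. None of these genes passed after adjustment, where 0.0383% of all tested genes did, and their part in the results was not tested.

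NtABS was read in every library with 945 to 2106 counts. In CK its level was 68.9, 62.4 and 64.9 CPM in replicates 1, 2 and 3. In P2.4a it was 61.2, 88.2 and 72.0 CPM. These groups overlap, since the lowest P2.4a library lies below all of CK while the other P2.4a libraries lie above it. In P3.9a NtABS stood at 122, 136 and 114 CPM, and in P9.10a at 98.6, 114 and 110 CPM. Every library of both these lines lies above every library of CK and of P2.4a, and the 2 lines overlap each other. Of all tested genes, 5.8% had all P3.9a libraries above all CK libraries, and 4.62% had them above all of P2.4a. For P9.10a above P2.4a the share was 4.01%, and above CK it was not counted. The choice of the genes used the contrast with CK, so nothing is read from the order against CK.

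The group means for NtABS, from low to high, were 65.4 ± 3.29 CPM in CK, 73.8 ± 13.6 in P2.4a, 107 ± 7.99 in P9.10a and 124 ± 11.01 in P3.9a (SD, n = 3 each). The step from CK to P2.4a is smaller than the spread inside P2.4a. The step from P9.10a to P3.9a is larger than the SD of either, although their libraries overlap. The fitted log2 change from CK was 0.18 (SE 0.14) in P2.4a, 0.72 (SE 0.14) in P9.10a and 0.92 (SE 0.15) in P3.9a, and 0.60 (SE 0.12) for the mean of the lines. The P2.4a value was 0.03 without its replicate 2 and 0.29 without its replicate 1. The line values share the same CK libraries.

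The cyclase gene was the most heavily read of the 3, with 4945 to 11335 counts per library. Its levels in CK were 318, 280 and 334 CPM. In P2.4a they were 321, 482 and 391 CPM. Replicate 1 of P2.4a falls inside the CK range, and replicate 2 is the highest of its line. In P3.9a the gene stood at 655, 731 and 540 CPM, and in P9.10a at 545, 503 and 404 CPM. All libraries of these lines exceed all CK libraries, P3.9a also exceeds all of P2.4a, and P9.10a overlaps both other lines. For P3.9a the shares of all tested genes with these orders were 5.8% against CK and 4.62% against P2.4a. For P9.10a above CK the share was not counted. As for NtABS, nothing is read from the order against CK.

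The means of cyclase stood in the same order of groups as those of NtABS: 311 ± 27.6 CPM in CK, 398 ± 81.0 in P2.4a, 484 ± 72.5 in P9.10a and 642 ± 96.1 in P3.9a (SD, n = 3 each). The steps from CK to P2.4a and from there to P9.10a are close to the SD inside the lines, and the step from P9.10a to P3.9a is larger than the SD of either. The fitted log2 change from CK was 0.36 (SE 0.18) in P2.4a, 0.64 (SE 0.18) in P9.10a and 1.05 (SE 0.18) in P3.9a, with 0.68 (SE 0.15) for the mean of the lines. In P3.9a this is a 2.07-fold higher level than in CK. The P2.4a value was 0.20 without its replicate 2.

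DXS had the fewest reads, 249 to 535 counts per library. It stood at 15.3, 17.3 and 18.9 CPM in CK. In P2.4a it was 22.4, 32.1 and 22.7 CPM, in P3.9a 22.9, 31.3 and 30.6 CPM, and in P9.10a 30.01, 21.7 and 24.7 CPM. All 9 transgenic libraries lie above all CK libraries, and the 3 lines overlap one another. Of all 39207 tested genes, 0.9% had all 9 transgenic libraries above CK; the choice of the genes used this contrast, so nothing is read from it.

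The DXS means of the lines lie closer together than the spread inside each line: 17.2 ± 1.79 CPM in CK, 25.5 ± 4.20 in P9.10a, 25.7 ± 5.53 in P2.4a and 28.2 ± 4.68 in P3.9a (SD, n = 3 each). The fitted log2 change from CK was 0.57 (SE 0.17) in P9.10a, 0.59 (SE 0.17) in P2.4a and 0.72 (SE 0.17) in P3.9a, with 0.63 (SE 0.15) for the mean of the lines. The step from CK to the lowest line mean is larger than the SD of any group. The choice of the genes used this contrast, so nothing is read from that step. Without P3.9a replicate 1, which has the lowest DXS level of its line, the P3.9a value was 0.86; the same step gave 0.94 for NtABS and 1.04 for cyclase.

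**Figure D1:**
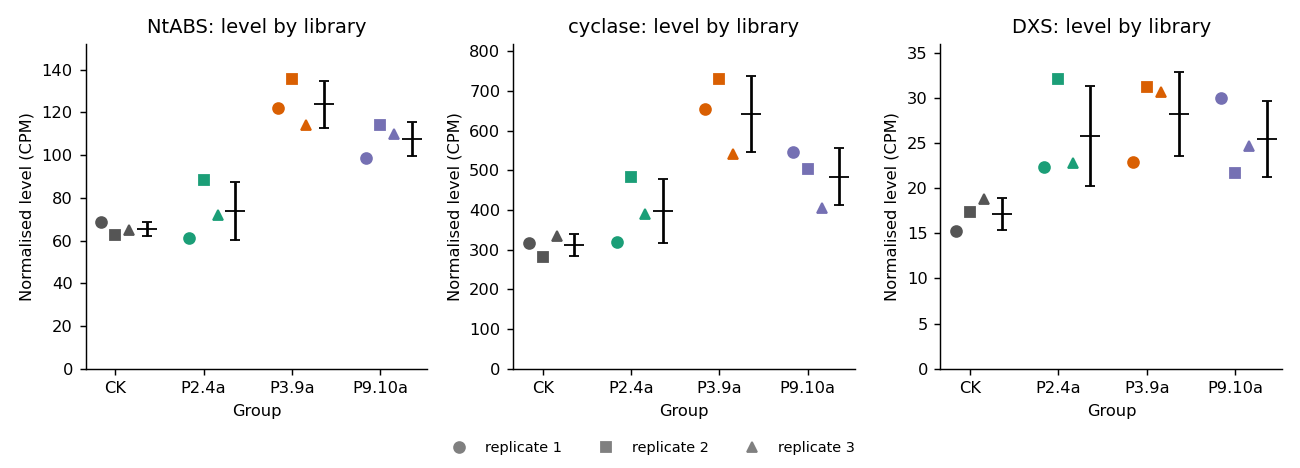
Normalised level in CPM (vertical axis, from 0) of NtABS, cyclase and DXS in each of the 12 libraries, by group; marker shape gives the replicate number, and the black bar beside each group is the mean with its SD over 3 libraries. NtABS is high in P3.9a and P9.10a with P2.4a overlapping CK, cyclase in P2.4a overlaps both CK and P9.10a, and DXS is above CK in all 3 lines.

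The spread between libraries exceeded what counting alone gives. The coefficient of variation inside a group ran from 5.03% for NtABS in CK to 21.5% for DXS in P2.4a, whereas counting error at these depths is between 0.985% for cyclase in P3.9a and 5.93% for DXS in CK. In each gene the line P2.4a had the widest relative spread, and its replicate 2 was the highest library of that line for all 3 genes.

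Differences between the lines are a contrast that the choice of the genes did not use. A choice by p does favour genes with a small fitted spread, and the tests and intervals below use that same spread. For NtABS both P3.9a and P9.10a stood above P2.4a. P3.9a exceeded P2.4a by 0.75 on the log2 scale, a fitted 1.68-fold difference with a 95% interval of 1.36 to 2.08. P9.10a exceeded P2.4a by 0.54, or 1.46-fold, with an interval of 1.18 to 1.80. P9.10a stood 0.21 log2 units lower than P3.9a (difference -0.21), with an interval from -0.51 to 0.10 that takes in no difference, and -0.13 without P3.9a replicate 2.

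In the edgeR F test among the 3 lines NtABS ranked 26 of 39207 genes by p, and it did not pass after adjustment over all genes (adjusted p = 0.576). Only 3 genes did, 0.00765% of those tested, while 1134 had an unadjusted p under 0.05. Its difference between P3.9a and P2.4a had an edgeR adjusted p of 0.310, and that between P9.10a and P2.4a an adjusted p of 1.00. The tool decides this call. DESeq2 put NtABS past the threshold among the lines (adjusted p = 0.00251; 0.117% of genes called) and between P3.9a and P2.4a (adjusted p = 0.00131; 0.0561% called), and limma did not.

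The cyclase gene followed the same order with less separation. P3.9a exceeded P2.4a by 0.69 on the log2 scale (1.61-fold, 95% interval 1.24 to 2.103; edgeR adjusted p = 0.750). P9.10a lay 0.41 below P3.9a (difference -0.41, interval -0.79 to -0.03; edgeR adjusted p = 0.999). The difference between P9.10a and P2.4a was 0.28, with an interval from -0.10 to 0.66; it was 0.15 without P2.4a replicate 1 and 0.44 without P2.4a replicate 2. Among the lines the edgeR F test gave adjusted p = 1.00, and DESeq2 did not call it either (adjusted p = 0.182).

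DXS did not pass the test among the lines (edgeR F test, adjusted p = 1.00). Its difference was 0.13 between P3.9a and P2.4a, with a 95% interval from -0.23 to 0.50. Between P9.10a and P2.4a it was -0.01 (interval -0.38 to 0.35), and between P9.10a and P3.9a -0.15 (interval -0.51 to 0.22). The interval for P3.9a against P2.4a reaches up to a 1.41-fold higher level. Single libraries moved these small values: leaving out 1 library at a time gave 0.04 (without P2.4a replicate 1) to 0.32 (without P2.4a replicate 2) for P3.9a against P2.4a, and -0.28 (without P9.10a replicate 1) to -0.04 (without P9.10a replicate 2) for P9.10a against P3.9a. Without P3.9a replicate 1 they were 0.27 and -0.28.

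In edgeR none of the 3 genes passed in any of the 3 comparisons between lines, in which 0.0051% of genes passed for P3.9a against P2.4a, 0.00255% for P9.10a against P2.4a and 0.0051% for P9.10a against P3.9a. At an unadjusted p under 0.05 stood NtABS and cyclase for P3.9a against P2.4a (1859 genes in all), NtABS for P9.10a against P2.4a (1002 genes) and cyclase for P9.10a against P3.9a (1052 genes). By order of libraries alone, all P3.9a libraries lay above all P2.4a libraries for NtABS and cyclase, as for 4.62% of tested genes. All P9.10a libraries lay above all P2.4a libraries for NtABS, as for 4.01%. Whether DXS differs from NtABS in its pattern over the lines was not tested.

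**Figure D2:**
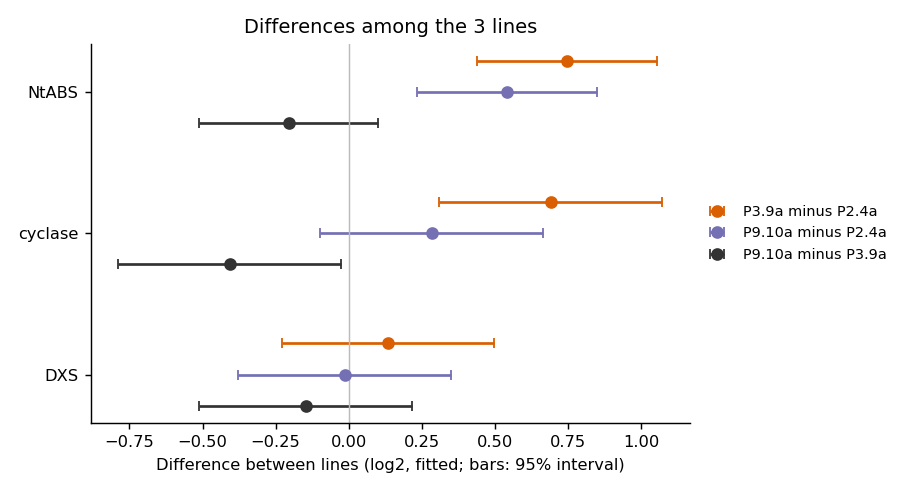
Fitted log2 differences between pairs of lines (horizontal axis) for NtABS, cyclase and DXS, with unadjusted 95% intervals from the fit of all 12 libraries; colours name the pair. The intervals of NtABS for P3.9a and P9.10a against P2.4a, and of cyclase for P3.9a against P2.4a, lie above 0, that of cyclase for P9.10a against P3.9a lies below it, and all 3 intervals of DXS include it.

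Shared variation was next examined inside the groups, with each library set against the mean of its own group so that the contrast with CK plays no part. NtABS and cyclase leaned the same way in 8 of 12 libraries, with Pearson r = 0.68 and Spearman rho = 0.59. The exact permutation test over all 1296 reorderings inside groups gave two-sided p = 0.0841 for r and p = 0.140 for rho (adjusted p = 0.252 and 0.256 over the 3 pairs). Without the 2 libraries farthest out in NtABS, P2.4a replicates 1 and 2, r was 0.33, so the relation rests on them. Leaving out P9.10a replicate 1 alone, where NtABS is low and cyclase high, gave r = 0.90 (exact permutation adjusted p = 0.0278), and leaving out P2.4a replicate 2 gave 0.47.

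The relation of DXS to cyclase and NtABS inside groups did not pass the test. With cyclase, r was 0.44 and rho 0.54 (exact permutation p = 0.275 and 0.171, adjusted p = 0.413 and 0.256), and r was 0.38 without the 2 libraries farthest out. With NtABS, r was 0.29 and rho 0.15 (exact permutation p = 0.564 and 0.714, adjusted p = 0.564 and 0.714). That last r changed sign to -0.36 without P2.4a replicates 1 and 2.

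Across all genes with a mean log2 CPM of 1 or more, likeness was ranked by the same within-group r over 12 libraries. The libraries share their depth and leaf material, so r values over so few points are a description. Cyclase ranked 249 of 33204 genes in likeness to NtABS, and NtABS ranked 544 in likeness to cyclase. DXS ranked 4740 for NtABS and 3436 for cyclase. The 3 genes most like NtABS were LOC107781554 (r = 0.97), LOC107803104 (0.93) and LOC107794937 (0.92), none of which has a symbol.

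Among genes with a symbol, the one most like NtABS was GGPPS2 (r = 0.81, rank 41), followed by cbp20 (0.77) and Nt-rab7a (0.74). GGPPS2 was also among the 3 most like cyclase (r = 0.77, rank 177), after NtAAA1 (0.84) and NtSIPK, a salicylic acid-induced protein kinase (0.78). The genes of any name closest to cyclase were LOC107825481 (0.98), LOC107782351 (0.95) and LOC107770940 (0.94). Without the 2 libraries farthest out in each case, r for GGPPS2 was 0.54 with NtABS and 0.75 with cyclase. With DXS its r was 0.54 over all 12 libraries and 0.34 without the 2 farthest out in DXS.

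For DXS the closest gene of all was NtPAL, a phenylalanine ammonia lyase at the entry of phenylpropanoid synthesis (r = 0.95), followed by LOC107831212 (0.95) and LOC107787566 (0.94). Next among genes with a symbol were palA, of the same enzyme family (0.88), and NtEIG-E76 (0.86). How the authors' counting treated reads shared by related copies is stated nowhere in the sources used here. The fitted log2 change for the mean of the lines was 0.63 for DXS, -0.16 for NtPAL and -0.17 for palA.

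**Figure D3:**
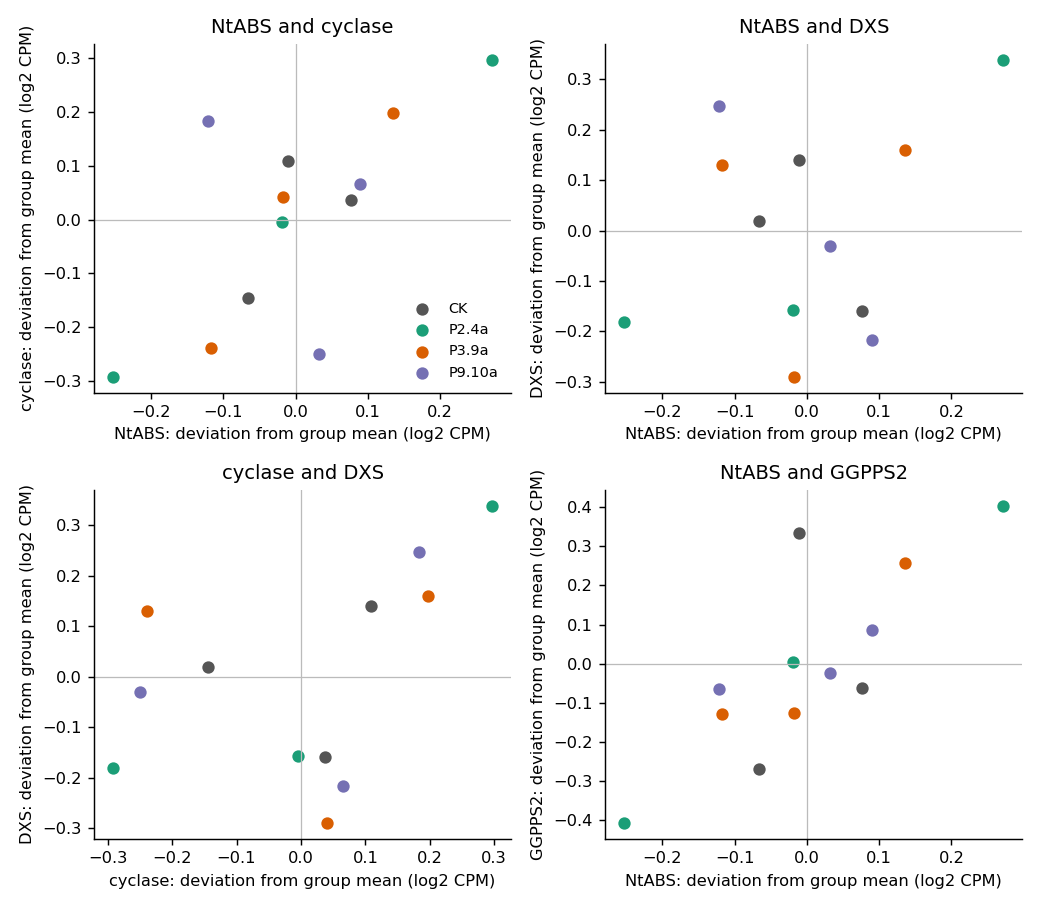
Deviation of each library from the mean of its own group in log2 CPM, for the 3 pairs of genes and for NtABS against GGPPS2; each point is 1 of 12 libraries, coloured by group. NtABS and cyclase (r = 0.68) and NtABS and GGPPS2 (r = 0.81) lean the same way, with P2.4a replicates 1 and 2 at the ends, while NtABS and DXS (r = 0.29) do not line up.

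GGPPS2 makes geranylgeranyl diphosphate, the precursor of all diterpenes, and was described further because both the pathway list and the likeness rule named it. Its levels were 52.5, 45.5 and 69.1 CPM in CK and 45.9, 80.5 and 61.1 CPM in P2.4a. In P3.9a they were 81.0, 106 and 80.9 CPM, and in P9.10a 66.2, 73.5 and 68.1 CPM. All P3.9a libraries lie above all CK libraries and above all of P2.4a, while P2.4a and P9.10a overlap CK. Of all tested genes 5.8% had all P3.9a libraries above all CK libraries, and 4.62% had them above all of P2.4a. The order of the means was CK, P2.4a, P9.10a and P3.9a, as for NtABS and cyclase. In edgeR its change for the mean of the lines was 0.39 (SE 0.16) and did not pass (adjusted p = 0.392), nor did its difference among the lines (adjusted p = 1.00), although both had an unadjusted p under 0.05.

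The other genes of the plastid isoprenoid route were higher and lower in about equal number. Of 11 matched by symbol beside DXS, 10 were tested, and none passed in edgeR for the mean of the lines in either direction, where 15 of all 39207 genes did (0.0383%); 2 had an unadjusted p under 0.05, as did 4452 of all tested genes. The fitted value was above 0 for 4 and below 0 for 6, with a median of -0.01, against 0.002 for all tested genes. None passed in edgeR among the lines, where 3 of all 39207 genes did (0.00765%). In that test 2 had an unadjusted p under 0.05, as did 1134 of all tested genes.

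The other DXS copies had smaller values, and the difference between copies was not tested. The copy LOC107818796 stood at 383 ± 39.9 CPM in CK and between 428 and 463 in the means of the lines (log2 change 0.21, SE 0.14, adjusted p = 0.614). LOC107790348 stood at 120 ± 8.43 CPM in CK and between 122 and 124 in the lines (0.03, SE 0.11, adjusted p = 0.943). Whether reads of these copies could be assigned to one another is not given. DXR, which catalyses the next step, had -0.02 (SE 0.10), and ISPH, the last enzyme of the route, had -0.18 (SE 0.11).

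Of the isomerases that balance the prenyl precursors, ipi1 had -0.08 (SE 0.10) and ipi2, at 5.22 ± 1.31 CPM in CK, had -0.48 (SE 0.20, adjusted p = 0.376). GGPPS1 had -0.03 (SE 0.36) and GGPPS3 0.30 (SE 0.17, adjusted p = 0.538). GGPPS4 had 1 to 12 counts per library and was not tested. The reductase gene chlP, which makes the side chain of chlorophyll, had -0.01 (SE 0.17).

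In the diterpene and trichome list the other matched genes were all gibberellin enzymes, 7 in number, of which 3 were tested. None passed in edgeR for the mean of the lines, where 0.0383% of all tested genes did. NtGA20ox, an oxidase of gibberellin synthesis, stood at 30.3 ± 4.01 CPM in CK, 53.3 ± 17.7 in P9.10a, 47.3 ± 24.8 in P3.9a and 54.2 ± 10.8 in P2.4a (0.77, SE 0.33, edgeR adjusted p = 0.415). Without P3.9a replicate 1 it passed in edgeR (0.90, adjusted p = 0.0276), in a fit where 740 genes passed against 15 with all libraries. GA2ox3 and GA2ox1, which inactivate gibberellins, had -0.03 (SE 0.18) and -0.45 (SE 0.40). The other 4, GA2ox2, GA2ox4, GA2ox5 and GA3ox2, had at most 12 counts in any library.

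The cytosolic route, which supplies sterols and sesquiterpenes, had 3 tested genes. None passed in edgeR for the mean of the lines, where 0.0383% of all tested genes did. HMGR1, a reductase that limits this route, had -0.12 (SE 0.10) and HMGR2 -0.16 (SE 0.19). FPPS, which makes farnesyl diphosphate, had 0.01 (SE 0.23). CYP71D20, a hydroxylase of the sesquiterpene capsidiol, had 0 to 11 counts per library and was not tested.

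**Figure D4:**
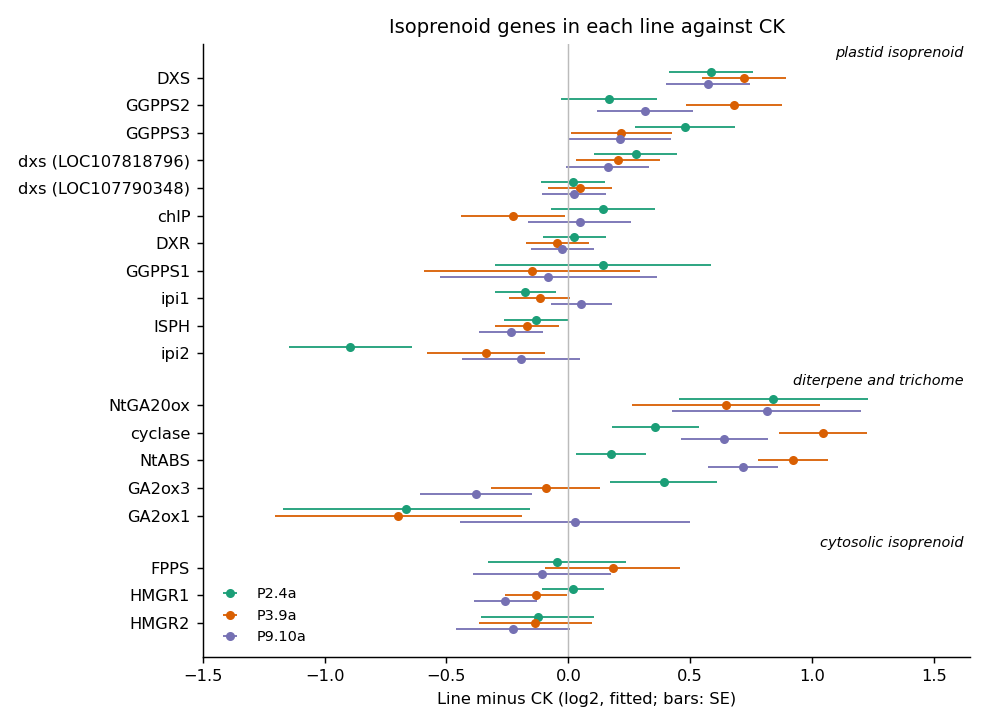
Fitted log2 difference of each line from CK (horizontal axis) with its SE for the 19 tested genes of the 3 isoprenoid lists, in the order of their mean change inside each list; colours name the line. NtABS, cyclase, GGPPS2, DXS, FPPS and the copy LOC107790348 are highest in P3.9a. DXS is between 0.57 and 0.72 in the 3 lines, and the copy LOC107818796 between 0.16 and 0.28. The copy LOC107790348 and DXR lie near 0.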

How the data were processed

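Leaf RNA of 12 libraries was measured by RNA sequencing. What the authors deposited is a table of raw counts, whole numbers for each gene and library. HISAT2 2.1.0, SAMtools and bedtools 2.25.0 are named in the submitters' processing notes. The library kit keeps strand, per the labels' protocols. For the genome build, annotation, counting rule and use of strand in counting the sources used here give nothing. Coordinates are left out for that reason. Symbols came from a reference gene table of assembly ASM71507v2, which held 49014 of 61526 identifiers, 1081 of them with a symbol. Unmatched identifiers held 4.43% of counts.

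Counts were fitted with edgeR 4.0.16 in R 4.3.3: TMM scaling, filterByExpr (minimum count 10), robust quasi-likelihood, 1 fit of all 12 libraries with 8 residual degrees of freedom, and Benjamini-Hochberg adjustment over 39207 genes at 0.05. The fit was tested on simulated data. An SE is the fitted log2 change divided by the square root of F. CPM of single genes used the TMM-scaled library sizes, and log2 CPM a prior count of 2. Summed CPM of the marker lists used library totals without that scaling. Correlations used deviations from group means. Alternatives were DESeq2 1.42.0, limma 3.58.1 with voom, other scaling, no filter, a replicate block, the transgenic libraries alone, and each library left out.

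The genes, lists and tests were chosen with earlier results of these data known. The text names the 3 genes, every tested gene of the 3 isoprenoid lists with a symbol, the 3 genes of any name and the 3 with a symbol most alike in within-group r, and the nearest tested neighbours. Leaf, root, flower, vascular, dividing-cell and trichome markers were matched by symbol. Symbols shared with unrelated genes were left out. Relatives by protein sequence were not analysed here. Every pair of libraries differed beyond sampling noise (chi-square per degree of freedom at least 5.09), so none is a copy or a split of another. This check cannot tell separate plants from repeat preparations of the same material. Each library was counted as its own sample because the labels call the libraries biological replicates. The labels do not say how many plants each library holds, and p-values measure the spread between libraries in 1 field experiment. The 95% intervals come from the fit and include the spread between libraries.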

Additional observations from a re-analysis of the deposited data

How the results depend on the processing

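The number of genes past the threshold for the mean of the lines against CK, 15 in edgeR, was 82 with no filter on low counts, 449 in DESeq2 and 4 with a replicate block. Leaving out 1 library gave 6 to 740; there were 740 when P3.9a replicate 1 was omitted, 48 for CK replicate 2, 42 for P9.10a replicate 2, 8 for P2.4a replicate 1, 9 for replicate 2 of that line as for P9.10a replicate 1, and 6 for CK replicate 1. For P3.9a against P2.4a the count, 2, was 22 in DESeq2, and 1 in limma, with a replicate block and in the transgenic libraries alone, with 1 to 6 on leaving out 1 library. For P9.10a against P2.4a the count, 1, was 3 with no filter and 16 in DESeq2, with 1 to 2 on leaving out 1 library. For P9.10a against P3.9a the count, 2, was 12 in DESeq2, with 2 to 4 on leaving out 1 library. Among the lines the count, 3, was 46 in DESeq2, with 2 to 6 on leaving out 1 library. The cause of these shifts was not tested.

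NtABS passed among the lines in DESeq2 alone (adjusted p = 0.00251, and 0.74 with adjusted p = 0.00131 for P3.9a against P2.4a); in edgeR its adjusted p ran from 0.280 to 1.00 on leaving out 1 library. The DXS difference between P9.10a and P2.4a, -0.01, was 0.0047 with the replicate block and -0.15 to 0.18 on leaving out 1 library. The within-group r of NtABS and cyclase ran from 0.47 to 0.90, and that of NtABS and DXS from -0.31 to 0.52. In the diterpene list 0 to 1 genes passed, the 1 being NtGA20ox without P3.9a replicate 1. Near 0, the log2 change of the mean of the lines ran from -0.25 to 0.45 for FPPS, -0.050 to 0.041 for DXR, -0.011 to 0.087 for dxs LOC107790348, -0.14 to 0.12 for GGPPS1, -0.089 to 0.060 for chlP and -0.078 to 0.064 for GA2ox3.

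Samples with the same replicate number did not deviate together: 18 correlations ran from -0.31 to 0.26, 4 of them over 0.1, so the numbers were not taken to pair samples. With the replicate block NtABS among the lines had an edgeR adjusted p of 0.767.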

Other observations

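The nearest tested genes beside NtABS and cyclase in the order of the reference annotation had low counts. LOC107774450 and LOC107818784, on either side of NtABS, had log2 changes of 0.35 (SE 0.44) and 0.19 (SE 0.22) for the mean of the lines against CK. LOC107803544 and LOC107797904, on either side of cyclase, had -0.60 (SE 0.25, edgeR adjusted p = 0.388) and 0.26 (SE 0.19). None passed in edgeR for the mean of the lines, where 0.0383% of all tested genes did, or among the lines, where 0.00765% did. DXS lies on unplaced sequence, so its neighbours were not analysed here.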
